A study of Mus musculus with 4 samples.

Results

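Cluster 2 of the mouse spleen cells held 1798 of 10912 spleen cells, in a series of 14875 cells, and its members were all cells to which the authors' deposited cell table gives the cluster number 2. It is described here across genes, with 928 cells from the library labelled ICOS FC and 870 from the library labelled ICOS WT. The series asked how regulatory T cells differ between ICOS-deficient mice, titled ICOS FC, and ICOS WT mice, at steady state in the spleen and in the cervical draining lymph node 1 day after oxazolone, a skin sensitiser used to set off contact allergy. Live CD4+ TCRβ+ YFP+ cells of C57BL/6 mice were sorted (purity above 95%) and went into 10x Genomics 3' libraries of version 3.1, 1 for each genotype and tissue. All groups therefore shared the sort on YFP, a yellow fluorescent protein. The sources used here do not give the promoter that drives YFP, any Cre driver, the deleted part of Icos, or the number and age of the mice. The labels give 12000 cells as prepared and do not say whether this was per library. With 1 library per group nothing could be tested between genotypes, and every interval below is a 95% interval for counting error only. They are too narrow where the UMIs (unique molecular identifiers, each standing for 1 captured transcript) of a gene sit in few cells.

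Regulatory T (Treg) cells are CD4+ T cells that depend on the transcription factor Foxp3 and restrain immune responses. Resting Treg cells recirculate through lymphoid organs with homing receptors such as CCR7, while effector Treg cells have met antigen, lose CCR7, and gain chemokine receptors, integrins and S100 proteins on the way to tissues. The costimulatory receptor ICOS, a relative of CD28, signals through PI3-kinase and is abundant on effector Treg cells.

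The 928 cells of cluster 2 labelled ICOS FC held 4319312 UMIs with a median of 3963 per cell, and the 870 cells labelled ICOS WT held 4479215 UMIs with a median of 4473.5. The median number of genes per cell was 1562.5 in ICOS FC and 1707.5 in ICOS WT. Mitochondrial transcripts made up 4.26% of UMIs at the median in both. Levels are given as counts per 1000000 UMIs (CPM) of the cluster, and a count of 0 allows up to 0.695 CPM in ICOS FC and 0.670 CPM in ICOS WT, taking 3 counts as the limit. The cluster held 15.7% of cells of the ICOS FC library and 17.4% of the ICOS WT library. These shares are not compared, since genes that define the cluster differed in level between the libraries. The spleen libraries shared 8 cell barcodes, none of them within cluster 2.

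Icos, the gene targeted in the design (chromosome 1, 60960773 to 61000322, GRCm38.p6), went against the labels. In cluster 2 it had 2373 UMIs in the library labelled ICOS FC, or 549 CPM [528, 572], against 1186 UMIs, or 265 CPM [250, 280], in the library labelled ICOS WT. That is a 2.07-fold higher level in ICOS FC, with a log2 ratio (ICOS FC over ICOS WT throughout) of 1.05 [0.95, 1.15]. An Icos UMI was found in 72.4% of ICOS FC cells and 58.4% of ICOS WT cells, and in 55.2% and 35.7% when every cell was thinned to 2000 UMIs, beside 14.8% and 15.9% of unthinned cells in cluster 4, where Foxp3 was lowest. The other spleen clusters had Icos at 205 CPM in ICOS FC and 81.7 CPM in ICOS WT. Among them, cluster 1 alone had Icos at 651 CPM in ICOS FC, above cluster 2, and at 253 CPM in ICOS WT. Lymph node cluster 0 had Icos at 1590 CPM in ICOS FC and 1163 CPM in ICOS WT, also higher in ICOS FC. A 3' tag outside the deleted part would check nothing, and the deleted part is not known here, so these values do not settle whether the labels of the libraries are right or exchanged. The libraries are called by their labels, and every direction below is that of the labels.

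T cell genes were present in cluster 2. Cd3e, a chain of the T cell receptor complex, was at 729 CPM in ICOS FC and 680 CPM in ICOS WT, and Cd4 was at 174 and 182 CPM in the same order. Foxp3, the lineage factor of Treg cells, had 297 UMIs in ICOS FC, or 68.8 CPM [61.2, 77.0], against 209 UMIs, or 46.7 CPM [40.6, 53.4], in ICOS WT (0.56 [0.30, 0.82]). This ratio stayed under the 1.5-fold used below as the rule of size, and in the other spleen clusters together Foxp3 was at 57.2 CPM in ICOS FC and 54.5 CPM in ICOS WT. A Foxp3 UMI was found in 25.6% [22.9, 28.6] of ICOS FC cells and 19.0% [16.4, 21.7] of ICOS WT cells of cluster 2. In cluster 4 the shares were 2.44% and 1.22%, given for comparison only, since free RNA was not measured here. Counted from the highest spleen cluster, Foxp3 in cluster 2 ranked 3 in ICOS FC and 6 in ICOS WT. Il2ra, a chain of the IL-2 receptor, ranked 6 in both, at 104 CPM in ICOS FC and 81.0 CPM in ICOS WT. Cluster 0 had Il2ra at 232 and 256 CPM. Of 14 Treg identity genes, 1 was at least 2-fold higher in cluster 2 than in the other spleen clusters in both libraries, and 2 were at least 2-fold lower.

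The markers behind the name of the cluster were 6 genes of effector Treg cells, and all 6 had their highest level of the 7 spleen clusters in cluster 2, in both libraries. The genes took part in the clustering, so this describes the cluster and is no test. Ccr2, the receptor for the monocyte chemokine CCL2, was at 93.1 CPM in cluster 2 of ICOS FC and 128 CPM in cluster 2 of ICOS WT, beside 2.09 and 1.72 CPM in the other clusters. S100a4, a calcium-binding protein linked to cell motility, was at 795.5 CPM in ICOS FC and 1310.5 CPM in ICOS WT, beside 27.8 and 46.6 CPM in the other clusters. S100a6, its neighbour on chromosome 3 (S100a4 at 90603770 to 90606045, S100a6 at 90612894 to 90614414), was at 1303 CPM in ICOS FC and 1395 CPM in ICOS WT. The other clusters had S100a6 at 100.47 and 74.9 CPM.

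Lgals3, which encodes the sugar-binding protein galectin-3, was at 71.1 CPM in cluster 2 of ICOS FC and 87.96 CPM in cluster 2 of ICOS WT, beside 5.43 and 1.41 CPM elsewhere in the spleen. Il1rl1 encodes ST2, the receptor for the alarmin IL-33, and was at 66.2 CPM in ICOS FC and 69.2 CPM in ICOS WT, beside 5.10 and 2.95 CPM elsewhere. Cxcr6, the receptor for CXCL16, was at 35.0 CPM in ICOS FC and 36.8 CPM in ICOS WT, beside 2.26 and 3.13 CPM elsewhere. Cluster 2 thus stood above the rest of the spleen for each marker in each library. With every cell thinned to 2000 UMIs, cluster 2 was the highest of the spleen clusters in both libraries for 5 of the 6. The exception was Il1rl1 in ICOS WT, at 64.8 CPM in cluster 2. It was at 86.96 CPM, from 8 UMIs, in the 46 cells left of cluster 6. The cluster with the next highest level differed by gene. It was cluster 6, with 117 cells in ICOS FC and 47 in ICOS WT, for Ccr2 (10.7 and 21.6 CPM), S100a4 (141 and 263 CPM) and Il1rl1 (26.9 and 47.5 CPM), and cluster 1 for S100a6 (332 and 259 CPM) and Lgals3 (17.9 and 5.34 CPM).

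**Figure D1:**
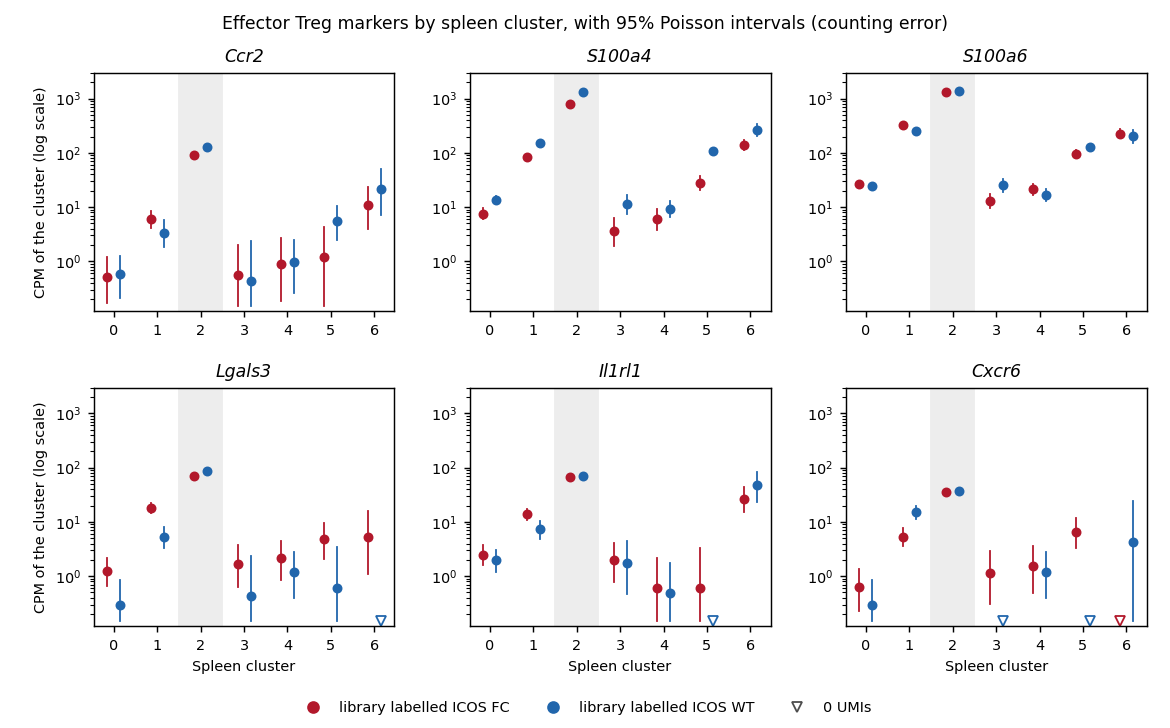
Level of the 6 marker genes in each spleen cluster, in CPM on a log axis, with the library labelled ICOS FC left of the library labelled ICOS WT and bars giving the 95% counting interval. Cluster 2 is highest for all 6 genes in both libraries, for example Ccr2 at 93.1 CPM in ICOS FC and 128 CPM in ICOS WT.

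The markers were far from uniform over the cells. At least 1 of the 6 was seen in 75.9% of ICOS FC cells and 79.7% of ICOS WT cells of cluster 2, and at least 2 in 47.7% and 55.9%. In the other spleen clusters at least 2 were seen in 3.77% of ICOS FC cells and 4.44% of ICOS WT cells. After thinning to 2000 UMIs, at least 2 markers were seen in 38.1% of ICOS FC cells and 45.6% of ICOS WT cells of cluster 2, and in 2.20% and 2.07% of cells elsewhere. All 6 were found together in 12 cells labelled ICOS FC and 15 labelled ICOS WT. A Ccr2 UMI was found in 18.1% of ICOS FC cells and 26.8% of ICOS WT cells, an S100a4 UMI in 48.0% and 58.0%, and an Il1rl1 UMI in 17.5% and 16.6%. In cluster 4 the shares were 0.458% in ICOS FC and 0.136% in ICOS WT for Ccr2, and 1.22% and 5.16% for S100a4. Marker genes tended to share cells, but cells were not thinned here, and the markers took part in the clustering. Of the cells with a Ccr2 UMI, 91.1% in ICOS FC and 88.4% in ICOS WT also had S100a4, and 47.6% and 41.6% also had Il1rl1. Ccr2 and S100a4 were found together in 153 ICOS FC cells and 206 ICOS WT cells, beside 80.6 and 135 from the product of their shares.

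Beyond the markers, 145 of 5036 genes (2.88%) were at least 2-fold higher in cluster 2 than in the other spleen clusters in both libraries, and 34 of 4744 (0.717%) were at least 2-fold lower. These genes include the ones that made the cluster and carry no test. Itgb1, the integrin β1 chain, was at 807 CPM in cluster 2 of ICOS FC and 686 CPM in cluster 2 of ICOS WT, beside 148 and 90.5 CPM elsewhere. An Itgb1 UMI was found in 77.9% and 77.0% of cells, beside 28.4% and 25.8% elsewhere. Cluster 1 alone had an Itgb1 UMI in 66.3% of ICOS FC cells and 58.1% of ICOS WT cells, at 429 and 288 CPM. Klrg1, an inhibitory lectin-like receptor of terminally differentiated T cells, was at 53.7 CPM in ICOS FC and 59.6 CPM in ICOS WT, beside 10.4 and 9.65 CPM elsewhere. It was not particular to cluster 2. A Klrg1 UMI was found in 8.94% of ICOS FC cells and 9.20% of ICOS WT cells there, and in 9.91% and 8.30% in cluster 1. Of 19 chemokine receptors, 16 had at least 5 CPM in a library of cluster 2. Of these, 10 were at least 2-fold higher in cluster 2 in both libraries. The 2-fold counts of the other gene lists use this lower minimum too. The 5036 genes had at least 20 CPM in both libraries of cluster 2. Il18r1, which encodes a chain of the IL-18 receptor, was at 109 CPM in ICOS FC and 161 CPM in ICOS WT, beside 17.7 and 25.9 CPM elsewhere. Il9r, the receptor for IL-9, was at 20.6 CPM in ICOS FC and 20.5 CPM in ICOS WT, beside 1.63 and 1.19 CPM elsewhere.

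Cytoskeletal and membrane genes gave the highest count of the lists. Of 22 genes of S100 proteins, annexins and the cytoskeleton, 15 were at least 2-fold above the other clusters in both libraries. Anxa2, a membrane-binding annexin, was at 161 CPM in ICOS FC and 155 CPM in ICOS WT, beside 23.9 and 16.7 CPM elsewhere. Lmna, which encodes the nuclear lamins A and C, was at 28.5 CPM in ICOS FC and 45.3 CPM in ICOS WT, beside 2.92 and 3.35 CPM elsewhere. Myo1f, a myosin of leukocytes, was at 53.5 CPM in ICOS FC and 51.3 CPM in ICOS WT, beside 5.39 and 4.14 CPM elsewhere. All 3 stood at several times their level in the other clusters in both libraries.

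Of 18 effector Treg transcription factors, 8 were at least 2-fold higher in cluster 2. Rora, the nuclear receptor RORα, was at 137 CPM in ICOS FC and 165 CPM in ICOS WT, beside 19.9 and 20.6 CPM elsewhere. Maf was at 348 CPM in ICOS FC and 396 CPM in ICOS WT, beside 129 and 121 CPM elsewhere. Id2, an inhibitor of E proteins, was at 122 CPM in ICOS FC and 204 CPM in ICOS WT, beside 51.2 and 48.0 CPM elsewhere. Cluster 1 alone had Id2 at 109 CPM in ICOS FC and 134 CPM in ICOS WT. Resting genes stood the other way, with 5 of 13 resting and lymphoid homing genes at least 2-fold lower in cluster 2 and none at least 2-fold higher. Satb1, a chromatin organiser of resting T cells, was at 73.4 CPM in ICOS FC and 58.9 CPM in ICOS WT, beside 285 and 293 CPM elsewhere. Bach2, a repressor that restrains effector differentiation, was at 18.3 CPM in ICOS FC and 20.3 CPM in ICOS WT, beside 65.1 and 76.8 CPM elsewhere. Igfbp4 was at 19.4 CPM in ICOS FC and 14.5 CPM in ICOS WT, beside 147 and 190 CPM elsewhere.

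A few leading genes rested on few cells. Ccl5, a chemokine of effector and memory T cells, was at 739.7 CPM in ICOS FC and 523 CPM in ICOS WT, and 10 cells held 34.5% and 41.7% of its UMIs. A Ccl5 UMI was found in 20.04% of ICOS FC cells and 18.3% of ICOS WT cells. Ly6c2, a surface antigen of effector T cells and monocytes, had 89.1% of its ICOS FC UMIs and 67.0% of its ICOS WT UMIs in 10 cells.

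In another clustering by the authors, at resolution 0.5, the cells of cluster 2 were mainly numbered 4 (456 labelled ICOS FC and 473 labelled ICOS WT) or 1 (417 and 351), which made up 51.7% and 42.7% of the cluster. Of 952 spleen cells numbered 4, 929 were in cluster 2, but of 1829 numbered 1 only 768 were, so most cells with that number lie in other clusters. Below, the cells numbered 4 or 1 are those inside cluster 2. A further 10 cells of cluster 2, numbered 8, had a median of 16429 UMIs. All 6 markers were higher in the cells numbered 4 than in those numbered 1, in both libraries. Lgals3 was at 97.1 CPM in number 4 and 1.91 CPM in number 1 of ICOS FC, and at 125 and 6.00 CPM in ICOS WT. Ccr2 was at 157 CPM in number 4 and 10.2 CPM in number 1 of ICOS FC, and at 197 and 26.0 CPM in ICOS WT. Klrg1 was at 90.1 CPM in number 4 and 3.83 CPM in number 1 of ICOS FC, and at 94.3 and 4.66 CPM in ICOS WT. S100a4 was at 1261 CPM in number 4 and 173 CPM in number 1 of ICOS FC, and at 1963 and 229 CPM in ICOS WT. Taken alone, the cells numbered 1 were not the highest of the spleen clusters in both libraries for any of the 6 markers. The label effector Treg-like thus rests mainly on the cells numbered 4. The cells numbered 1 still stood above the other spleen clusters summed, in both libraries, for Ccr2, S100a4, S100a6 and Il1rl1. Their Il1rl1 level was 24.9 CPM in ICOS FC and 18.7 CPM in ICOS WT, beside 5.10 and 2.95 CPM elsewhere. For Lgals3 and Cxcr6 they stood above the other clusters in ICOS WT only.

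Bcl2, Ccr7 and Jun were among the genes higher in the cells numbered 1. Bcl2, the survival factor, was at 113 CPM in number 4 and 275 CPM in number 1 of ICOS FC, and at 69.1 and 237 CPM in ICOS WT. Ccr7, the receptor for lymph node entry, was at 52.2 CPM in number 4 and 138 CPM in number 1 of ICOS FC, and at 46.4 and 109 CPM in ICOS WT. Jun was at 93.8 CPM in number 4 and 285 CPM in number 1 of ICOS FC, and at 40.0 and 94.6 CPM in ICOS WT.

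**Figure D2:**
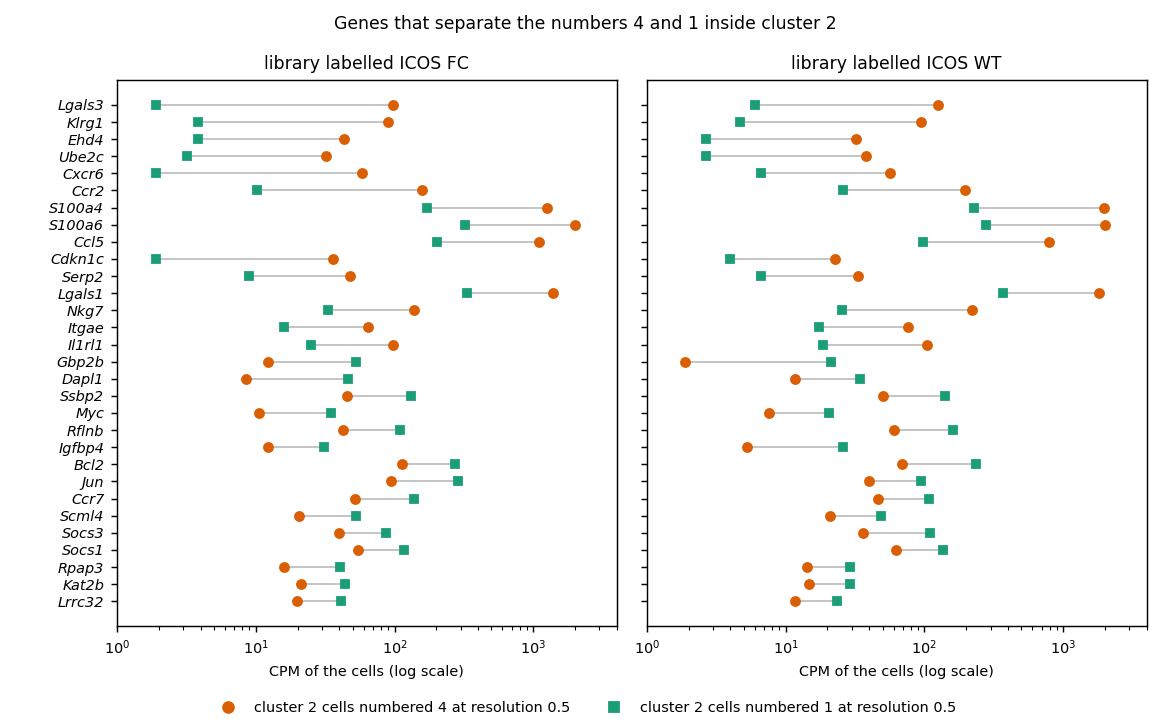
Levels of genes that separate the cells numbered 4 (circles) from those numbered 1 (squares) inside cluster 2, in CPM on a log axis, with the library labelled ICOS FC on the left and ICOS WT on the right. Lgals3 lies far higher in the cells numbered 4, at 97.1 CPM against 1.91 CPM in ICOS FC, and Bcl2, Ccr7 and Jun lie higher in the cells numbered 1.

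Within cluster 2 the libraries labelled ICOS FC and ICOS WT were set side by side gene by gene. A gene was called higher or lower where it passed the rule of size, namely at least 20 CPM in a library, at least 1.5-fold, and a counting interval clear of equality. Of 5521 genes, 94 were higher (1.7%) and 64 lower (1.16%) in ICOS FC, with a median log2 ratio over all of them of -0.02. In the other spleen clusters summed, 30 of 5017 genes were higher (0.598%) and 14 lower (0.279%). Those clusters together hold more UMIs and so have narrower intervals. Of the 94 higher genes, 62 had at least 20 CPM elsewhere in the spleen, where 58 had the same sign and 20 passed the same rule. Of the 64 lower genes, 40 did, with 39 of the same sign and 5 past the rule. These genes were chosen on the pooled cells, most of which are numbered 4 or 1. The interval was clear of equality in both subgroups, each with fewer cells, for 52 of the 94 higher and 18 of the 64 lower genes. A count with each subgroup weighted equally, a setting chosen after seeing the data, gave 84 higher and 73 lower genes. Of 50 named genes past the rule, 48 had a finite ratio in all 13 settings of scaling and cells that were tried, and 25 of them passed it in every one, among them Fos, Jun, Dusp1, Icos, Lag3, Ddit4, Med10 and Thy1. Aldh1l1 and Atp6v0d2 had 0 UMIs in a library in at least 1 setting. The 23 others lost the call in at least 1 setting, among them S100a4, Zfp36, Socs2, Lrrc32, Cyp51, Id2 and Ccr3.

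Immediate early genes, which cells transcribe within minutes of a stimulus or of tissue handling, and AP-1 subunits had the highest list medians in ICOS FC. Fos, a subunit of the AP-1 transcription factor, had 483 UMIs in ICOS FC, or 112 CPM [102, 122], against 78 UMIs, or 17.4 CPM [13.8, 21.7], in ICOS WT, a 6.42-fold higher level (2.68 [2.34, 3.05]). A Fos UMI was found in 31.2% [28.3, 34.3] of ICOS FC cells and 7.24% [5.61, 9.17] of ICOS WT cells, and in 18.3% and 2.45% after thinning. Jun, its partner, was at 165 CPM in ICOS FC and 59.4 CPM in ICOS WT (1.47 [1.27, 1.68]). Both genes were thus higher in cell share and in level. Fosb was at 57.6 CPM in ICOS FC and 24.6 CPM in ICOS WT (1.23 [0.90, 1.57]), and Junb at 706 and 394 CPM (0.84 [0.76, 0.93]). Feedback regulators stood the same way. Dusp1, a phosphatase that switches off MAP kinases, was at 78.7 CPM in ICOS FC and 26.8 CPM in ICOS WT (1.55 [1.251, 1.87]). Ppp1r15a, a phosphatase subunit that restores translation after stress, was at 60.4 CPM in ICOS FC and 24.6 CPM in ICOS WT (1.30 [0.97, 1.63]). Zfp36, which speeds the decay of AU-rich mRNAs, was at 179 CPM in ICOS FC and 105 CPM in ICOS WT (0.77 [0.61, 0.94]).

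Of 20 immediate early and dissociation stress genes, 15 had at least 20 CPM, of which 7 were higher, 0 lower and 8 between, with a list median of 0.77, beside 0.46 in the other clusters. Heat shock genes of that list did not pass the rule: Hspa8 was at 1861 CPM in ICOS FC and 1582 CPM in ICOS WT (0.23), and Hsp90aa1 at 551 and 433 CPM (0.35). Of 12 AP-1 subunits, 6 had at least 20 CPM, with 4 higher and 2 between (median 0.87, and 0.92 in the other clusters). The 4 higher ones, Fos, Fosb, Jun and Junb, are also among the 7 higher genes of the list above, so the counts overlap. The difference between the libraries was not particular to cluster 2. Fos had ratios of 2.35, 2.63, 2.12 and 2.85 in clusters 0, 1, 3 and 4, beside 2.68 in cluster 2 and -0.05 in cluster 5. Dusp1 had 1.04, 0.77, 0.76 and 1.503 in clusters 0, 1, 3 and 4, beside 1.55 in cluster 2 and 0.25 in cluster 5. Since these genes respond to tissue handling and each library was 1 preparation, the genotype label and the preparation cannot be told apart.

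**Figure D3:**
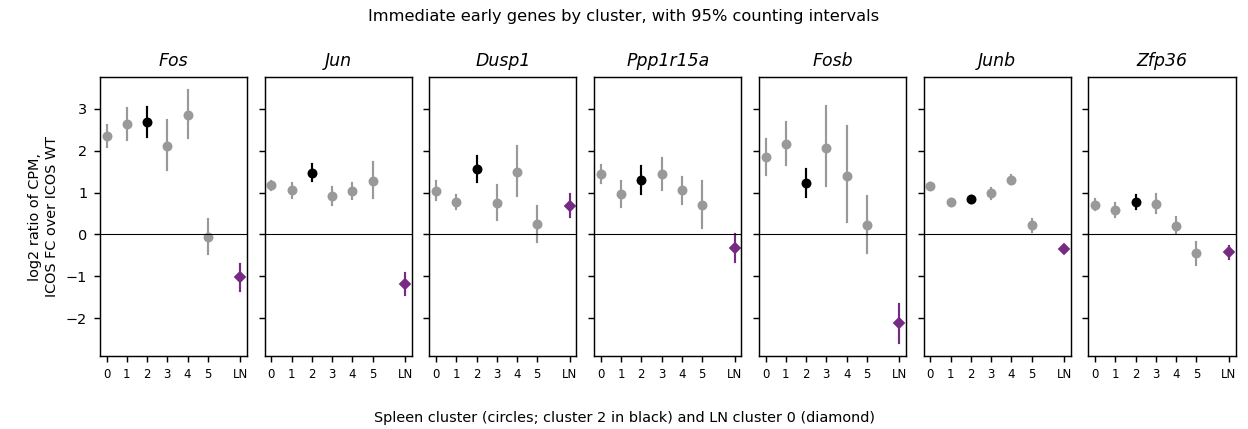
Log2 ratio, ICOS FC over ICOS WT, of 7 immediate early genes in each spleen cluster with at least 50 cells per library and in lymph node cluster 0, with 95% counting intervals. Cluster 2 has positive ratios for all 7 genes, from 0.77 for Zfp36 to 2.68 for Fos, and Fos, Jun and Fosb are negative in lymph node cluster 0.

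Promoters of these 7 genes were read from RefSeq (GRCm38.p6), as the 250 bases before the transcription start, to see whether they share a known element. All 7 genes matched. The cAMP response element (letters TGACGTCA) was in 2 of the 7 windows and in 508 of 32851 windows of all genes (1.55%). The serum response element known as the CArG box was in 1 of the 7 and in 482 of all windows (1.47%), and the AP-1 site (TGANTCA) was in 0 of the 7 and in 2217 of all windows (6.75%), with both strands searched. Over the 94 higher genes, 71 matched, with 89 windows, and the cAMP response element was in 4 (4.49%), beside 169 of 5665 windows (2.98%) of the genes compared. The AP-1 site was in 7 of the 89 (7.87%), beside 224 of the 5665 (3.95%). A match describes the letters and is not a binding site shown to act. The 3 windows with a cAMP response element or CArG box are printed 5′ to 3′ on the strand of the gene, with that element in capitals. Dusp1 is chr17:26508473-26508722 on the minus strand, Ppp1r15a is chr7:45526269-45526518 on the minus strand, and Zfp36 is chr7:28379229-28379478 on the minus strand.
Dusp1: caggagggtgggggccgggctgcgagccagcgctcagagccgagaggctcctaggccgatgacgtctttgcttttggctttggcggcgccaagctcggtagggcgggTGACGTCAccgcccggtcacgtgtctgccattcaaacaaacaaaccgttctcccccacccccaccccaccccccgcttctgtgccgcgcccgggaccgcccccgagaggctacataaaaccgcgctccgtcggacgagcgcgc
Ppp1r15a: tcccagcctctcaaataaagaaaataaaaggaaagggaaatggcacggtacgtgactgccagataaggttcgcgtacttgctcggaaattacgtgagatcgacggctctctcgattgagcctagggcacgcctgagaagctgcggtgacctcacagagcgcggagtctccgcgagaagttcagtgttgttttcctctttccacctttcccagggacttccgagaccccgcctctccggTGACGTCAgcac
Zfp36: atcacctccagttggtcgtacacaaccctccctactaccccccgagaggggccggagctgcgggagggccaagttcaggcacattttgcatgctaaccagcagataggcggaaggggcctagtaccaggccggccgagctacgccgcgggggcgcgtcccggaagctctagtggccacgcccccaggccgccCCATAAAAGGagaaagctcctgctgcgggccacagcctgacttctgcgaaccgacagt
The element began 143 bases before the start in Dusp1, 12 in Ppp1r15a and 58 in Zfp36.

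The list of cholesterol synthesis and related lipid genes had the lowest list median in ICOS FC. Of its 17 genes, 10 had at least 20 CPM, and 4 were lower in ICOS FC, 0 higher and 6 between, with a list median of -0.56 in cluster 2 and -0.22 in the other spleen clusters. Idi1, which isomerises the isoprene unit from which sterols are built, was at 12.96 CPM in ICOS FC and 29.2 CPM in ICOS WT (-1.17 [-1.65, -0.71]). Msmo1, a sterol C4-methyl oxidase, was at 21.8 CPM in ICOS FC and 40.9 CPM in ICOS WT (-0.91 [-1.28, -0.54]). Cyp51, the lanosterol demethylase, was at 18.8 CPM in ICOS FC and 32.6 CPM in ICOS WT (-0.80 [-1.21, -0.40]). These 3 enzymes of sterol synthesis were lower in ICOS FC with intervals clear of equality. The other gene past the rule, Scd2, is a fatty acid desaturase outside the sterol pathway and was at 15.7 CPM in ICOS FC and 26.1 CPM in ICOS WT (-0.73). Elsewhere in the spleen Idi1 had a ratio of -0.43 and Msmo1 -0.09. The list median was -0.70 in the cells numbered 4 and -0.43 in the cells numbered 1.

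RefSeq windows were at hand for Idi1, Cyp51 and Msmo1. All 3 held a CCAAT box (letters CCAAT on either strand), a motif found in 11120 of 32851 windows (33.8%). It was in 33 of 67 windows (49.3%) of the 64 lower genes, of which 51 matched, and in 30 of 89 windows (33.7%) of the 94 higher genes. The sterol regulatory element (letters TCACNCCAC) was in 0 of the 3 windows and in 346 of all windows (1.05%). These windows are shown for the CCAAT boxes, which are in capitals, printed 5′ to 3′ on the gene's strand. Idi1 is chr13:8885356-8885605 on the plus strand, Cyp51 is chr5:4104698-4104947 on the minus strand, and Msmo1 is chr8:64733579-64733828 on the minus strand.
Idi1: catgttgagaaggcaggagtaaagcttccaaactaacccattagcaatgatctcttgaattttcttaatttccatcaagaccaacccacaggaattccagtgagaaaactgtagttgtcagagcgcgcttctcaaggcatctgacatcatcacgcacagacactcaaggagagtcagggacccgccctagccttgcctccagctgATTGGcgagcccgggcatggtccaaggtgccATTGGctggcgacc
Cyp51: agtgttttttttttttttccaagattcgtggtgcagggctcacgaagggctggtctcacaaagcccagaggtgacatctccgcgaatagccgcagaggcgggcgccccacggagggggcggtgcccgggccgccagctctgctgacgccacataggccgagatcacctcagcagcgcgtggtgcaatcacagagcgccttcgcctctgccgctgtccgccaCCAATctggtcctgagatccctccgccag
Msmo1: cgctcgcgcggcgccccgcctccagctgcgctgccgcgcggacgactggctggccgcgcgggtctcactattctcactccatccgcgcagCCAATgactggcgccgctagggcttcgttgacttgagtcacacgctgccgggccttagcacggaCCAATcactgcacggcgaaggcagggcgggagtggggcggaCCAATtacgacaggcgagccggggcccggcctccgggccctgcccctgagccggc
The boxes began 45 and 14 bases before the start in Idi1, 29 in Cyp51, and 160, 96 and 55 in Msmo1.

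Among suppressive genes, Lag3 and Fgl2 were higher in ICOS FC. Lag3, an inhibitory receptor for MHC class II, had 136 UMIs in ICOS FC, or 31.5 CPM, against 52 UMIs, or 11.6 CPM, in ICOS WT (1.44 [0.97, 1.93]). Fgl2, a secreted fibrinogen-like protein of Treg cells, was at 54.6 CPM in ICOS FC and 21.0 CPM in ICOS WT (1.38 [1.03, 1.74]). These were the 2 of 5 suppressive genes with at least 20 CPM that passed, with 0 lower and a list median of 0.32, beside 0.49 elsewhere. Ctla4 was at 191 CPM in ICOS FC and 152 CPM in ICOS WT (0.33) and did not pass. Il10, an anti-inflammatory cytokine, was too low to compare, at 2.78 CPM in ICOS FC and 0.67 CPM in ICOS WT. Pdcd1, which encodes PD-1, stood the other way, at 17.1 CPM in ICOS FC and 29.9 CPM in ICOS WT (-0.80 [-1.23, -0.38]). The costimulatory and inhibitory receptors as a list had 2 higher, Icos and Lag3, 1 lower, and 9 between (median -0.08).

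Of 13 Treg identity genes with at least 20 CPM, 2 were higher, 0 lower and 11 between (median 0.19, and 0.14 elsewhere). Lrrc32, which encodes GARP, the docking protein of latent TGF-β, was at 27.5 CPM in ICOS FC and 15.2 CPM in ICOS WT (0.86). Socs2, a feedback inhibitor of cytokine receptors, was at 69.2 CPM in ICOS FC and 42.0 CPM in ICOS WT (0.72). Of the IL-2 and STAT5 feedback genes, Socs2 and the kinase Pim1, at 524 CPM in ICOS FC and 301 CPM in ICOS WT (0.80), were higher, with 9 between and a median of 0.14. The resting and homing list had a median ratio of 0.16 in cluster 2, beside -0.16 elsewhere.

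Of the 6 effector markers, S100a4 alone passed the rule. It had 3436 UMIs in ICOS FC against 5870 in ICOS WT and was 1.65-fold lower in ICOS FC (-0.72 [-0.78, -0.66]). Its ratio was -0.74 in the other spleen clusters and -0.64 in the cells numbered 4. In the cells numbered 1 it was -0.40, under 1.5-fold. Ccr2 had a ratio of -0.46 [-0.65, -0.28] and Lgals3 -0.31 [-0.53, -0.09], both under 1.5-fold. S100a6 had -0.10 [-0.15, -0.05], Il1rl1 -0.06 [-0.30, 0.17] and Cxcr6 -0.08 [-0.40, 0.25]. Over the list the count was 0 higher, 1 lower and 5 between, with a median of -0.20, and 0.32 elsewhere. Members were chosen by their level in cluster 2, and elsewhere Ccr2 and Cxcr6 were under 5 CPM in both libraries. The list median was -0.22 in the cells numbered 4 and -0.85 in the cells numbered 1, where Ccr2 had a ratio of -1.35 [-2.29, -0.48] and S100a6 one of 0.21 [0.025, 0.40]. Of 21 S100, annexin and cytoskeleton genes, S100a4 and Lmna were lower and 19 were between, with a median of -0.13 that was 0.06 in the cells numbered 1. Lgals1, which encodes galectin-1, was at 975.2 CPM in ICOS FC and 1356 CPM in ICOS WT (-0.48) and stayed between.

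**Figure D4:**
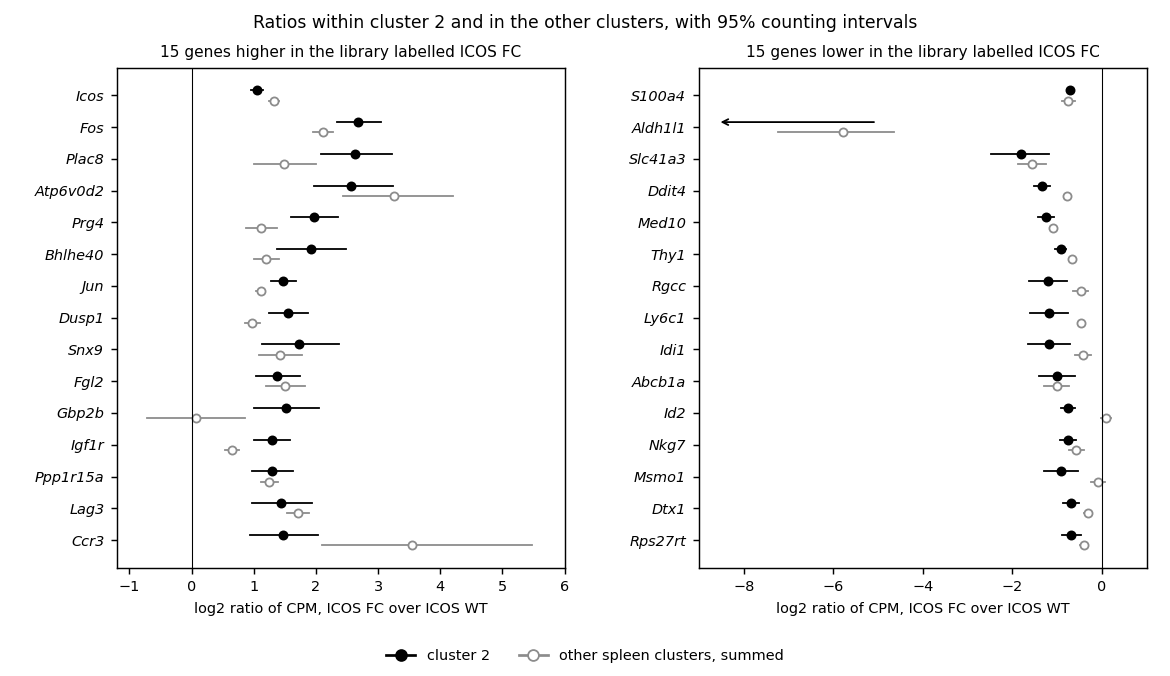
Log2 ratio, ICOS FC over ICOS WT, of the 15 highest genes (left) and 15 lowest genes (right) by the interval bound nearest equality, in cluster 2 (black) and in the other spleen clusters summed (grey), with 95% counting intervals. An arrow stands for Aldh1l1, which had 0 UMIs in ICOS FC, and Fos is at 2.68 and S100a4 at -0.72 in cluster 2.

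Among effector transcription factors, Bhlhe40, a basic helix-loop-helix repressor, was higher, at 30.3 CPM in ICOS FC and 8.04 CPM in ICOS WT (1.92 [1.37, 2.49]), and Id2 was lower (-0.75 [-0.91, -0.59]), with 10 between and a median of 0.07. Id2 had a ratio of 0.09 in the other spleen clusters and -0.27 in the cells numbered 1. Batf, an AP-1 partner needed by effector Treg cells, was at 120 CPM in ICOS FC and 87.3 CPM in ICOS WT (0.46) and stayed between. Of the chemokine receptors, Ccr3, the eotaxin receptor, was the only one past the rule, at 25.5 CPM in ICOS FC and 9.15 CPM in ICOS WT (1.48 [0.95, 2.03]). Its UMIs were in 64 ICOS FC cells and 26 ICOS WT cells. The list median was -0.16, and -0.25 elsewhere. Of the IL-1 family and type 2 cytokine receptors, Il18rap was lower, at 15.5 CPM in ICOS FC and 25.5 CPM in ICOS WT (-0.71), and 7 were between (median 0.01). Il18r1 stayed just under the rule, at 109 CPM in ICOS FC and 161 CPM in ICOS WT (-0.56 [-0.73, -0.39]).

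The list of ICOS, PI3-kinase and FoxO genes, which holds Icos itself, gave 2 higher, Icos and Pik3cd, 1 lower and 14 between (median -0.17). Pik3cd, the catalytic subunit p110δ, was at 99.3 CPM in ICOS FC and 59.6 CPM in ICOS WT (0.74 [0.51, 0.96]). Ddit4, an inhibitor of mTORC1, had 338 UMIs in ICOS FC, or 78.3 CPM, against 886 UMIs, or 198 CPM, in ICOS WT (-1.34 [-1.52, -1.16]). A Ddit4 UMI was found in 24.1% of ICOS FC cells and 48.7% of ICOS WT cells. The FoxO target Klf2 was at 1118 CPM in ICOS FC and 1166 CPM in ICOS WT (-0.06). Genes induced through the T cell receptor had 2 higher, Myc and Cd83, and 4 between (median 0.50, and -0.05 elsewhere). Of these, Cd69, an early activation antigen, was at 278 CPM in ICOS FC and 196 CPM in ICOS WT (0.51) and stayed between. The shorter TCR-activated list had 1 higher and 1 between (0.44), with a median of 0.39 in the cells numbered 4 that turned to -0.14 in the cells numbered 1. The list of NF-kB genes had 1 higher, the deubiquitinase Tnfaip3, at 56.7 CPM in ICOS FC and 29.2 CPM in ICOS WT (0.96), and 13 between (-0.04).

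Among the lowest genes, Aldh1l1, a folate enzyme (chromosome 6, 90550768 to 90599171), had 0 UMIs in ICOS FC and 125 UMIs, or 27.9 CPM, in ICOS WT, spread over 110 cells. Taking 3 counts as the limit, it was at least 40.2-fold lower in ICOS FC. The other spleen clusters had it at 0.251 CPM in ICOS FC and 13.7 CPM in ICOS WT, and lymph node cluster 0 at 0.177 and 35.2 CPM. Its neighbour Slc41a3, a magnesium transporter (chromosome 6, 90604730 to 90646412), was at 6.25 CPM in ICOS FC and 21.9 CPM in ICOS WT (-1.81 [-2.48, -1.18]). Both neighbours were lower in ICOS FC in cluster 2, in the rest of the spleen and in the lymph node. Med10, a Mediator subunit, was at 78.0 CPM in ICOS FC and 186 CPM in ICOS WT (-1.2497 [-1.44, -1.07]), and Thy1, a surface glycoprotein of T cells, at 217 and 411 CPM (-0.92 [-1.04, -0.81]). Abcb1a, a drug efflux pump, was at 17.8 CPM in ICOS FC and 35.7 CPM in ICOS WT (-1.003 [-1.41, -0.60]).

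On the higher side, Igf1r, the receptor for insulin-like growth factor, was at 75.9 CPM in ICOS FC and 31.0 CPM in ICOS WT (1.29 [1.00, 1.59]), beside a ratio of 0.65 elsewhere. Prg4, which encodes lubricin, was at 64.6 CPM in ICOS FC and 16.5 CPM in ICOS WT (1.97 [1.59, 2.36]) and was found in 15.4% and 4.83% of cells. Gbp2b, an interferon-inducible GTPase, was at 28.0 CPM in ICOS FC and 9.82 CPM in ICOS WT (1.51 [1.00, 2.04]), from 55 and 25 cells, and had a ratio of 0.07 elsewhere at 1.30 and 1.23 CPM. Plac8 was at 44.2 CPM in ICOS FC and 7.14 CPM in ICOS WT (2.63), but its UMIs came from 44 and 14 cells, with 57.6% and 87.5% of them in 10 cells.

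The remaining lists had few members past the rule. No member passed the rule among 13 glycolysis genes (median -0.02), 20 respiratory chain genes (-0.12), 12 survival and apoptosis genes (0.01), 8 TNF receptor family genes (0.06) and 8 proliferation genes (-0.17, and 0.25 elsewhere). Interferon response genes had 1 higher, Ifit1, at 28.0 CPM in ICOS FC and 18.1 CPM in ICOS WT (0.63), and 9 between (-0.04), with Ifit1 at -0.17 in the cells numbered 1. TGF-beta signalling had 1 higher, Lrrc32, and 10 between (0.01). Follicular Treg genes had 1 lower, Pdcd1, and 2 between (0.22, and -0.41 elsewhere). Th1-type genes had 1 lower, Nkg7, and 3 between (-0.30), Th2-type genes 3 between (-0.06) and Th17-type genes 1 between (-0.45). The share of cells called G1, S and G2M by the authors was 55.4%, 32.7% and 11.96% in ICOS FC and 53.8%, 34.9% and 11.3% in ICOS WT.

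Markers of other cell types included several at 0, but most of the lists summed higher in cluster 2 than elsewhere in the spleen. Elsewhere the B cell list summed to 67.8 CPM in ICOS FC and 69.8 CPM in ICOS WT. The CD8 T and NK list there summed to 57.5 and 65.0 CPM, and the ILC2 list, which holds Il1rl1, to 123 and 111 CPM. The stroma and conventional CD4 T cell lists summed lower in cluster 2. Among 8 B cell markers, Pax5 had 0 UMIs in both libraries and the list summed to 134 CPM in ICOS FC and 100 CPM in ICOS WT, of which Cd79b, higher in ICOS FC, was 39.8 and 22.3 CPM. Of 13 myeloid and dendritic cell markers, 6 were at 0 in both (Itgax, Adgre1, S100a8, S100a9, Flt3 and Siglech), and the sum was 190 CPM in ICOS FC and 170 CPM in ICOS WT, nearly all Cst3. The 11 CD8 T and NK cell markers summed to 122 CPM in ICOS FC and 190 CPM in ICOS WT, with Ncr1 at 0, and Nkg7 (92.4 and 155 CPM) and Cd8b1 (12.04 and 21.2 CPM) were lower in ICOS FC. In ICOS WT, 1 cell held 36 of the 95 Cd8b1 UMIs, and Cd8b1 turned to 0.26 in the cells numbered 1 and to 0.078 in G1 cells. The part of CD8 T or NK cells in the Nkg7 difference was not tested, and in the cells numbered 1 Nkg7 had a ratio of 0.39. Plasma cell markers summed to 93.5 CPM in ICOS FC and 97.6 CPM in ICOS WT, ILC2 markers to 297 and 305 CPM with Il13 and Il5 at 0, erythroid and platelet markers to 14.4 and 8.71 CPM, and stroma and endothelium markers to 56.3 and 61.4 CPM. Conventional CD4 T cell markers had Tnfsf8 higher, at 67.6 CPM in ICOS FC and 33.5 CPM in ICOS WT, and Cd40lg lower, at 18.3 and 29.2 CPM, with 2 between (-0.21).

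The leading genes of cluster 2 were then looked up in the lymph node cells, which were clustered in a table of their own and had no part in the rule. Lymph node cluster 0 (1206 cells, 681 labelled ICOS FC and 525 labelled ICOS WT) had higher levels than the other lymph node cells for all 20 genes in both libraries, and was the highest lymph node cluster for 10 of them in both. This cluster was chosen with earlier results of these data known, so its levels are a description and no test. The gap was small for Ly6c2 in ICOS FC, at 23.0 CPM beside 20.7 CPM in the other lymph node cells. Ccr2 was at 185 CPM in cluster 0 of ICOS FC and 405 CPM in cluster 0 of ICOS WT, beside 25.2 and 20.1 CPM in the other lymph node cells. S100a4 was at 1126 CPM in ICOS FC and 1935 CPM in ICOS WT, beside 146 and 113 CPM. Of the 10 lowest genes, 9 were lower there in both libraries. The exception was Tnfrsf9, which encodes 4-1BB, at 530 CPM in ICOS FC and 515 CPM in ICOS WT, beside 263 and 186 CPM.

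**Figure D5:**
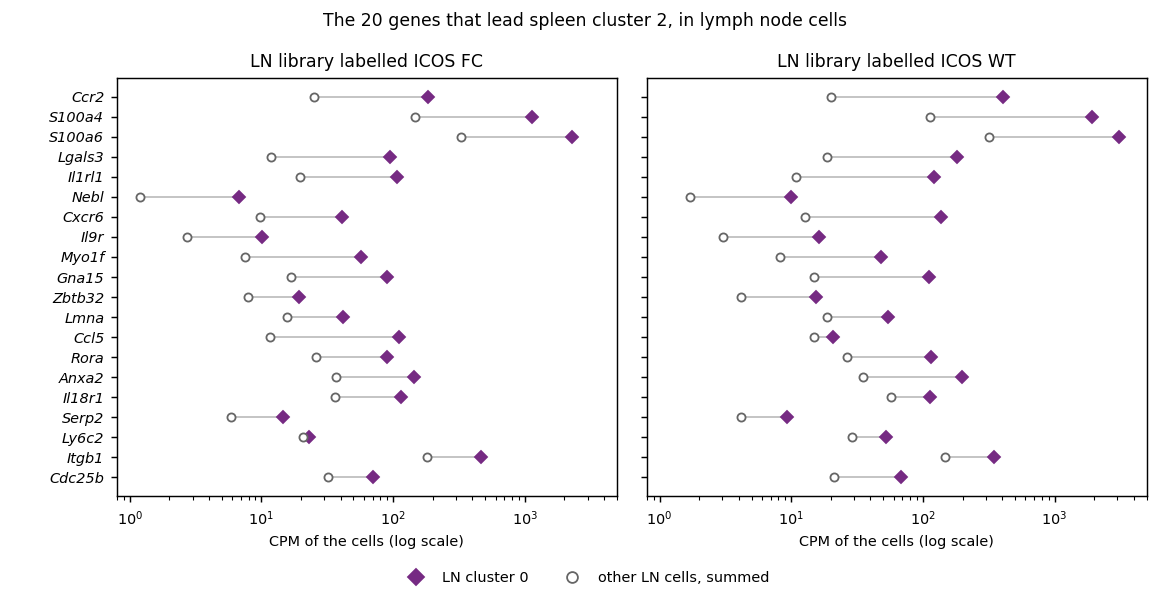
Levels of the 20 genes that lead spleen cluster 2 in lymph node cluster 0 (diamonds) and in the other lymph node cells summed (open circles), in CPM on a log axis, with the library labelled ICOS FC on the left and ICOS WT on the right. The diamond lies right of the circle for all 20 genes in both panels, for example Ccr2 at 185 CPM against 25.2 CPM in ICOS FC.

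The ICOS FC over ICOS WT ratios differed between the spleen cluster and lymph node cluster 0, where 101 of 5655 genes were higher (1.79%) and 136 lower (2.4%). The cells also differ in tissue, in oxazolone challenge and in library, which cannot be told apart. Of the 94 genes higher in cluster 2, 73 had at least 20 CPM there, 23 passed the rule the same way and 7 the opposite way. Fos was at 24.2 CPM in ICOS FC and 49.4 CPM in ICOS WT of lymph node cluster 0 (-1.03), Jun at 32.9 and 74.8 CPM (-1.19), and Fosb at 9.02 and 39.4 CPM (-2.13). These AP-1 genes were higher in ICOS FC in the spleen cluster and lower in ICOS FC in the lymph node cluster. Of the 64 lower genes, 52 had at least 20 CPM there, with 16 past the rule the same way and 2 the opposite way. Cluster 2, the other spleen clusters and lymph node cluster 0 shared 7 higher genes, among them Dusp1, Igf1r, Epcam and Cd83, and 5 lower genes, Ddit4, Med10, Pdcd1, S100a4 and Thy1.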

How the data were processed

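Single-cell expression was measured in 4 libraries, 1 per group. The deposited values are ln(1 + UMIs per 10000) of each cell, a natural log scale set by the authors. The authors' cell table holds a UMI count, a percent of mitochondrial counts, a cluster number, phase scores and a phase call per cell. The authors' phase scores were not used here. Their phase calls gave the shares in G1, S and G2M and the setting with G1 cells. Cells marked KO were read as ICOS FC and cells marked Control as ICOS WT, from those words alone. The submitters' processing notes name Cell Ranger 4.0.0, Seurat 3.0, R 3.6.1 and the build GRCm38.p6 (mm10), without roles. Whether the authors removed doublets is not stated in the sources used, and none were removed here.

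Each log value was turned back into UMIs with the deposited count of the cell. Within 0.001, all (100%) of 17846401 spleen values and 8798056 lymph node values came out whole. UMIs were summed per cluster and library and divided by their total to give CPM (Python 3.11.15, numpy 2.4.6, scipy 1.17.1, pandas 2.3.3, matplotlib 3.10.9). Ratios carry exact conditional Poisson intervals and shares Clopper-Pearson intervals, both at 95%. The rule of size asked for 20 CPM in a library, 1.5-fold and an interval clear of equality, and the steps were tested on simulated data. Named genes were the markers with Icos and Foxp3, the 15 highest and 15 lowest past the rule by the interval bound nearest equality, the 20 leading and 10 lowest genes of the cluster, and up to 4 members per list plus those of at least 100 CPM; genes named besides these were picked from the lists after their values were seen. A list median covers members of at least 5 CPM in a library of cluster 2, with 0.5 CPM added. The medians for the other spleen clusters use these same members, whatever their level there. The 37 lists held 474 members. The cluster, its markers and the lists were chosen with earlier results of these data known. Antigen receptor segments were not analysed here. A few list members are not reported here. Alternatives changed the fold, the minimum, the scaling and the cells counted.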

Additional observations from a re-analysis of the deposited data

Results flagged for a closer look

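Of the 94 higher and 64 lower genes of cluster 2, leaving out receptor segments and unnamed gene models, 3 had a counting interval on the opposite side of equality in the other spleen clusters, and the difference between the clusters was not tested. Cd8b1, which encodes the CD8 β chain, had a log2 ratio (ICOS FC over ICOS WT) of -0.817 in cluster 2, at 12.04 CPM in ICOS FC and 21.2 CPM in ICOS WT, and 0.212 in the other clusters. Its level in cluster 2 rests on few cells, with 55.8% of the ICOS WT UMIs in 10 cells. Pclaf, a PCNA-associated factor of dividing cells, had -0.807 in cluster 2, at 12.5 CPM in ICOS FC and 21.9 CPM in ICOS WT, and 1.02 in the other clusters. Myc, a growth-promoting transcription factor, had 0.688 in cluster 2, at 20.1 CPM in ICOS FC and 12.5 CPM in ICOS WT, and -0.208 in the other clusters.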

How the results depend on the processing

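No paired analysis was possible because each group is 1 library. Against 94 higher and 64 lower genes, the counts were 285 and 325 with a smaller fold minimum, 25 and 8 at 2-fold, 249 and 207 with a minimum of 5 CPM, 35 and 11 with 50 CPM, 326 and 240 with no minimum, and 145 and 110 with a total without ribosomal and mitochondrial genes. They were 204 and 157 in cells with a Foxp3 UMI and 160 and 115 in the cells numbered 4. Lower genes numbered 149 in the cells numbered 1, 119 in G1 cells and 144 in thinned cells. Fewer cells or UMIs enter these last settings, and the cause of each change was not tested. In the cells numbered 1, 0 of the 6 markers were highest in cluster 2, and with thinned cells 5 of the 6 were. The list median had the opposite sign in the cells numbered 1 for 14 of 31 lists, and in the cells numbered 4 for 5. Of 48 called named genes with a ratio in all 13 settings, 25 were called and 45 kept their sign in every one. Cd8b1 turned to 0.078 in G1 cells and 0.26 in the cells numbered 1, where Ifit1 turned to -0.17 and Nkg7 to 0.39. The calls lost most often were Cd8b1, Cd83 and Ifit1. The settings by subgroup were chosen after seeing the data. With 1 library per group no difference has a replicate check, and the minimum of 20 CPM was a choice, below which counting intervals are wider.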
